A study of Mus musculus with 60 samples.

Results

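The sarcomere genes of heart and skeletal muscle are described here in whole organs of mice that lack Ftsj1 and of wildtype mice. They are 35 genes that a fixed list names by symbol, and all 35 have a row in each of the 5 deposited poly-A tables, out of 55290 named features per table. Of the members, 14 belong to the thick filament, 12 to the thin filament and its length control, and 9 to titin, the Z-disc, the M-band and desmin. The labels give 6 male mice, 4 months old, fed ad libitum and without special treatment: 3 are labelled Ftsj1_DF, Ftsj1-deficient, and 3 are labelled WT, wildtype. They are brothers from 2 litters, of 4 and 2 mice, each with both genotypes, and the allele that makes the mice deficient is not described in the sources used here. Brain, heart, kidney, liver and spleen of the same 6 mice were used, so that the organs are not independent of each other. Ftsj1 encodes an RNA methyltransferase that modifies the anticodon loop of certain tRNAs, and the study compared the 2 genotypes in each organ.

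The sarcomere is the contractile unit of striated muscle. Myosin heavy and light chains form the thick filament, which myosin-binding protein C stiffens and regulates; actin, tropomyosin and the troponin complex form the thin filament, which calcium switches on through troponin. Titin runs from the Z-disc, where thin filaments are anchored, to the M-band, where thick filaments are linked, and desmin ties Z-discs to each other and to the cell membrane. Many of these proteins come as cardiac, slow skeletal and fast skeletal forms from separate genes, so that the mix of members tells atrial, ventricular and skeletal muscle apart, while brain, kidney, liver and spleen have no sarcomeres in their main cell types.

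The tables hold 1 comparison per organ and no column per library: a mean level over the 6 libraries in normalised counts (reads divided by each library's size factor), a log2 fold change signed as Ftsj1-deficient minus wildtype, its standard error, and DESeq2's p-values. Ftsj1 itself fell in all 5 of the authors' deposited tables, by 2.70 ± 0.10 on the log2 scale in brain to 3.51 ± 0.15 in liver (SE, 3 against 3 libraries). The defining markers of neurons, cardiomyocytes, kidney tubules, hepatocytes and B cells had their highest summed mean level in the organ of that label, and Actc1, Tnnc1 and Pln, 3 of the 8 cardiomyocyte markers, were listed at 0 in every organ. Reads per library were worked out for features with a mean level under 100, since the deposited means carry 15 digits and only 1 set of whole reads fits most of them. Libraries are called by genotype and by falling size factor, and which mouse a library came from is not known. The largest size factor was 2.14 times (spleen), 4.80 times (liver), 6.46 times (brain), 11.4 times (heart) or 18.0 times (kidney) the smallest, and the deepest heart and kidney libraries were both wildtype. All p-values measure the spread between 3 and 3 mice of these litters.

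In heart the members took 4.98% of the summed mean level, or 49817 ppm (parts in 1000000 of the organ's summed mean level). The same sum was 321 ppm in brain, 319 ppm in spleen, 159 ppm in kidney and 72.3 ppm in liver. The tables were normalised separately, so these levels are a description. Heart was 155 times above brain and 156 times above spleen on this scale. Leaving out the 100 highest features of each organ gave 273 and 256 times, and scaling to features common to all organs gave 230 and 278 times.

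Per kilobase of coding sequence, the highest members in heart were Myl2, the ventricular regulatory light chain, at 7823 ppm per kilobase, Tnnt2, the cardiac troponin T, at 4866, the tropomyosin gene Tpm1 at 4168, Myl3, the ventricular and slow skeletal essential light chain, at 4011, and Tnni3, the cardiac troponin I, at 3946. Myh6, the adult mouse heart's main myosin heavy chain, had the highest level without regard to length, 16337 ppm, and 32.8% of all members' level. Its neighbour Myh7, the slow heavy chain of fetal heart and slow muscle, stood at 220 ppm. Of the 31-base words in their annotated transcripts, 31.7% for Myh6 and 30.6% for Myh7 also occur in another gene, so their split depends on how the authors' counting treated such reads, which the sources used here do not give.

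24 of the 35 members had their highest level in heart, 7 in brain, 3 in spleen and 1 in liver. The members that peaked outside the heart are mostly skeletal muscle forms. Mybpc1, the slow myosin-binding protein C, reached 12.0 ppm in brain against 0.089 in heart, and Tnni1, the slow skeletal troponin I, 4.86 against 0.57. Mylpf, Tnnt3 and Tnni2, which encode the fast regulatory light chain and the fast troponins T and I, were highest in spleen, at 6.20, 2.12 and 5.69 ppm, with heart the second organ for all 3.

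Neb, which encodes nebulin, the ruler of the skeletal thin filament, was highest in liver, at 31.2 ppm, and made up 43.1% of the members' level there. That share takes no account of length. Neb has 22.4 kilobases of coding sequence and Tpm1 1.43. Their mean levels in liver were 7465 and 7161, so that Tpm1 was higher than Neb per kilobase. Brain held 11.4 and heart 9.88 ppm of Neb. In brain, kidney and spleen Tpm1 was the highest member, with 62.4%, 64.0% and 48.7% of the sum. Tpm1 is also expressed outside muscle, and without it heart held 43874 ppm and the other organs between 42.4 and 164. For Myh1 the highest organ changed from brain to spleen, and for Tnnc2 from brain to heart, when the 100 highest features were left out.

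The distance between heart and the other organs differed widely among members. Myl2 was 15132 times higher in heart than in brain, its second organ, while Myh7 was 42.2 times, Myl4, the atrial essential light chain, 18.2 times and Tnnt1, the slow troponin T, 1.68 times higher than in brain. Desmin, which smooth muscle also makes, was 15.7 times higher in heart than in spleen, where Des reached 83.9 ppm. Myom2, an M-band protein gene, was second highest in kidney, at 18.7 ppm, and Ttn in spleen, at 13.2. Actn2 reached 17.2 and Ldb3 13.1 ppm in brain, both genes of the Z-disc.

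**Figure D1:**
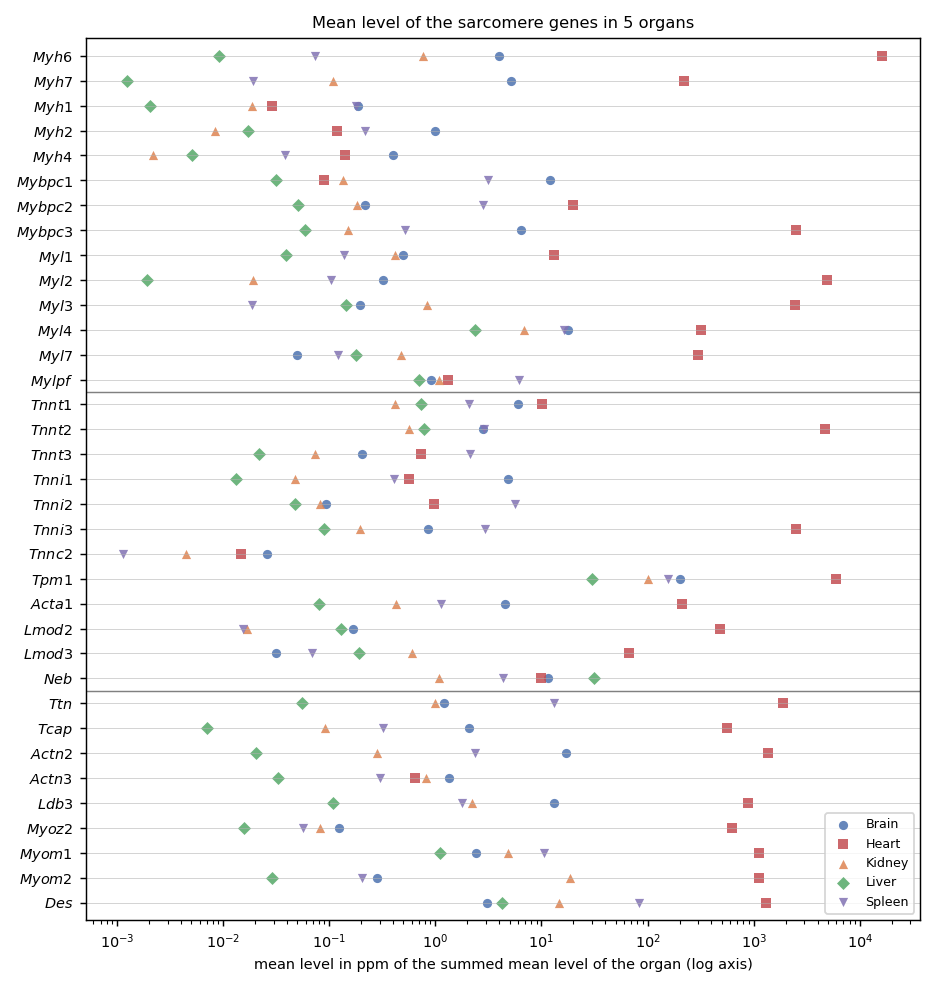
Mean level of each of the 35 members over 6 libraries, in ppm of the organ's summed mean level, on a log axis, with 1 symbol per organ and grey lines between thick filament, thin filament and the titin, Z-disc, M-band and desmin genes. The heart squares lie furthest right for 24 members, Neb is furthest right in liver, and Mylpf, Tnnt3 and Tnni2 in spleen; Tnnc2 was at 0 in liver and has no point there.

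Between genotypes 2 of the members passed the authors' threshold, an adjusted p under 0.05. Mybpc3, the cardiac myosin-binding protein C, was higher in the kidney of Ftsj1-deficient mice, and Lmod2, the leiomodin that lengthens cardiac thin filaments, was lower in their liver. In the heart, where the members are abundant, none of the 33 tested passed. In bulk organs, fewer cells of a type and less RNA per cell cannot be told apart.

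The members held 138 adjusted p-values over the 5 organs. Of 31 brain members 0 passed, where 0.0607% of all features did, and of 33 heart members 0, against 0.541%. For kidney the count was 1 of 29 members, against 0.987% of all features in either direction and 0.339% higher. Liver had 1 of 15, against 2.29% in either direction and 1.41% lower, and spleen 0 of 30 against 0.0741%. Without adjustment, p was under 0.05 for 5 of 35 heart members (5.71% of all features), 5 spleen members (4.7%), 3 kidney members (3.99%), 2 brain members (2.34%) and 1 liver member (6.63%). The smallest adjusted p of a member was 0.999938 in brain, 0.258 in heart and 0.262 in spleen.

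The median log2 fold change of the members with a mean level of 10 or more lay close to that of all such features in 4 organs. Brain members had 0.0051 (33 members; 0.0021 over all features), kidney members 0.083 (29; 0.0051), liver members 0.067 (19; 0.0058) and heart members -0.062 (33; -0.0019). The heart median turned to 0.0038 when both genotypes were scaled to the same summed level. That scaling raised the kidney and liver medians and lowered the spleen median. The log2 ratio of summed levels, deficient over wildtype, was -0.026 in kidney, -0.051 in liver and 0.080 in spleen. Spleen members had 0.28 (27; 0.019), and 20 members were above 0 and 7 below, where 53.1% of all features were above 0. The median standard error of a member's log2 fold change was 0.46 for liver members, 0.31 for spleen members, 0.25 for brain members and 0.23 for kidney members, against 0.18, 0.24, 0.14 and 0.13 over all features, so the members were measured less precisely than the median feature in these 4 organs. For heart members it was 0.18, against 0.22.

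**Figure D2:**
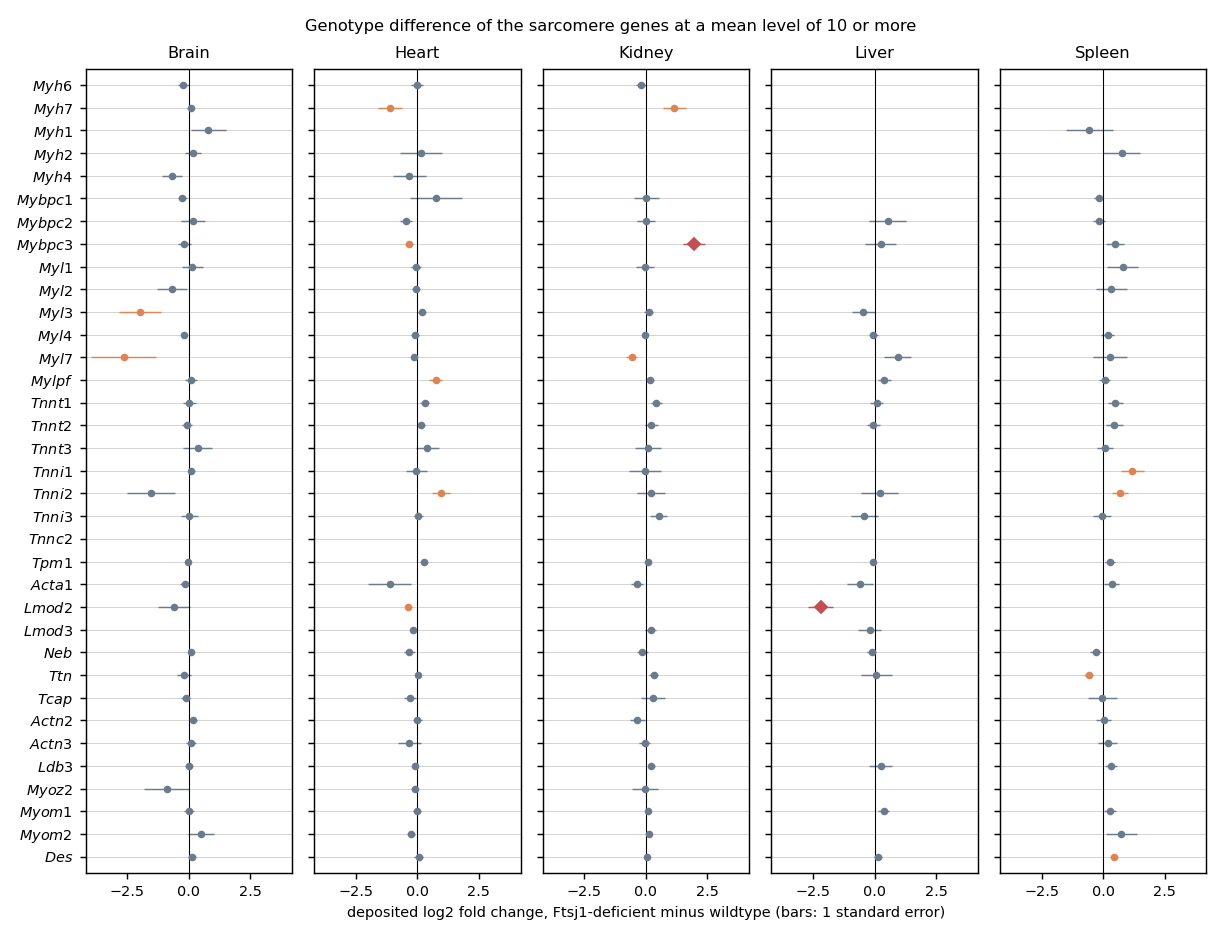
Deposited log2 fold change of each member in each organ, Ftsj1-deficient minus wildtype, with bars of 1 standard error, for members with a mean level of 10 or more (33 brain, 33 heart, 29 kidney, 27 spleen and 19 liver members). The red diamonds are Mybpc3 in kidney and Lmod2 in liver, which passed the adjusted threshold; orange points had an unadjusted p under 0.05, and grey points did not.

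Mybpc3 stood apart in kidney. The 3 wildtype kidney libraries held 132, 16 and 10 reads of it, or 27.4, 15.7 and 15.6 normalised counts, and the 3 Ftsj1-deficient libraries 86, 55 and 33 reads, or 56.9, 68.5 and 123 normalised counts. Every deficient library lay above every wildtype library. The means were 19.6 ± 6.8 and 82.9 ± 35.4 (SD, n = 3 each), a ratio of 4.23. In the authors' deposited table the log2 fold change was 1.96 ± 0.45 (SE), with p = 1.34e-05 and adjusted p = 0.00277. Without any 1 of the libraries the log2 ratio of the recovered means was between 1.68 and 2.40. An exact two-sided permutation test over the 6 libraries gave p = 0.1, the smallest that 3 against 3 allow. It was run only for members that had passed the authors' test on the same libraries, so it is no separate support.

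At 0.15 ppm, Mybpc3 in kidney was far under its 2481 ppm in heart. The highest value, 123, came from the shallowest kidney library, where 1 read is worth 3.73 normalised counts, and 1 read of the deepest wildtype library is worth 0.21. None of the 31-base words of its transcripts occurs in another gene. The nearest protein-coding genes, Spi1 and Madd, stood at 0.07 ± 0.14 and -0.02 ± 0.08 (log2 fold change) by the authors' deposited table for kidney; neither passed the test (these were looked up after the values of Mybpc3 were seen).

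Other cardiac transcripts in kidney had values in both directions. Among members, the authors' deposited table gives 1.16 ± 0.46 for Myh7, 0.53 ± 0.35 for Tnni3 and 0.21 ± 0.26 for Tnnt2. It gives -0.20 ± 0.20 for Myh6 and -0.58 ± 0.23 for Myl7. Of the 8 cardiomyocyte markers, Actc1, Tnnc1 and Pln were at 0, and the sum of Nppa and Csrp3, the 2 with recovered reads, was 1.56 to 5.90 normalised counts in wildtype and 2.64 to 7.47 in deficient libraries. Ryr2, the cardiac calcium release channel, fell in the authors' deposited table for kidney (-0.82 ± 0.14), while Casq2 and Smpx had values of 0.11 ± 0.31 and 0.04 ± 0.21 there. In kidney 0.987% of all features were called. Smooth muscle markers had 0 of 9 called, with a median of 0.098. The neutrophil markers S100a8 and S100a9 were 2 of 4 that rose in the authors' deposited table for kidney (1.24 ± 0.35 and 1.17 ± 0.31), and Cxcr2, another neutrophil gene, had 20.2 to 39.7 normalised counts in wildtype and 44.8 to 88.6 in deficient libraries. Of 6 hepatocyte markers, Ttr and Serpina1a fell in kidney (-1.14 ± 0.12 and -1.08 ± 0.16 in the authors' deposited table). The 4 adrenal cortex markers had a median of -5.47, and the 4 exocrine pancreas markers above 0 one of 8.20, and none of these 8 has a deposited p in kidney. The part of the tissues behind these members and markers in the Mybpc3 difference was not tested.

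In the other organs Mybpc3 gave smaller values. The authors' deposited tables give -0.35 ± 0.16 for heart (p = 0.0294, adjusted p = 0.506), -0.18 ± 0.25 for brain, 0.25 ± 0.62 for liver and 0.48 ± 0.35 for spleen. Spleen libraries held 66.4, 56.6 and 41.3 normalised counts in wildtype and 77.2, 63.6 and 90.4 in deficient mice, and the genotypes overlapped. In liver they overlapped as well, at 10.6, 14.3 and 14.5 against 16.8, 18.3 and 10.3.

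The promoter of Mybpc3 is shown because the gene passed the test in kidney, although nothing in these data was measured on it. It is RefSeq sequence, build GRCm38.p6 and not the authors' GRCm39, chr2:91117894-91118193 on the plus strand, mostly upstream of the start, with capitals for the matches to 2 motifs: E-boxes (CANNTG, bound by MyoD-type factors) and a MEF2 box (CTANNNNTAG). 3 E-boxes and 1 MEF2 box were found, and the MEF2 box directly precedes the last E-box.
Mybpc3: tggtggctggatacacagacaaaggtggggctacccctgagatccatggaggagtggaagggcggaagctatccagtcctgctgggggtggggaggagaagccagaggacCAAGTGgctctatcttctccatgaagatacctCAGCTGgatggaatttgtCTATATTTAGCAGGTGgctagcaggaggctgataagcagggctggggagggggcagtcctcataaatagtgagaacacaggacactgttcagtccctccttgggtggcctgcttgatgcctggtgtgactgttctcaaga
An E-box on either strand occurs in 72.3% of 32544 promoters of this length and a MEF2 box in 3.7%. Of the 28 members with a promoter in the table, 5 hold a MEF2 box, namely Des, Ttn, Mybpc3, Myoz2 and Ldb3, and 6 hold a CArG box (1.64% of all promoters), namely Acta1, Myl3, Myl7, Myh4, Ldb3 and Myom1. A match to letters is a description of the sequence and not a bound site.

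None of the 5 myosin heavy chains passed in any organ. Myh7 had values of -1.11 ± 0.50 in heart and 1.16 ± 0.46 in kidney by the authors' deposited table (p = 0.0273 and 0.0114, adjusted p = 0.494 and 0.445). In kidney its libraries held 17.9, 24.6 and 28.0 normalised counts in wildtype and 39.7, 67.3 and 44.8 in deficient mice, without overlap. Myh6 was at -0.02 ± 0.23 in heart. In spleen, at a mean level of 9.39 and outside the rule for named members, Myh6 had 16.6, 18.4 and 12.4 normalised counts in wildtype libraries and 4.51, 4.42 and 0 in deficient ones (log2 fold change -2.37 ± 0.96, p = 0.0133, adjusted p = 0.595 in the authors' deposited table). That is 17, 14 and 9 reads against 7, 5 and 0.

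The fast skeletal chains Myh1, Myh2 and Myh4 stayed below a mean level of 227 in every organ, and share 37.9%, 38.5% and 30.4% of their words with other genes. Myh1 in heart had 7.02, 8.03 and 5.42 normalised counts in wildtype and 3.73, 0 and 0 in deficient libraries. Kidney Myh1 gave 2.70, 1.97 and 1.56 against 3.97, 4.98 and 22.4. Neither pair of groups overlapped, but the authors' deposited values, -2.18 ± 1.75 and 2.07 ± 1.15, were within 2 standard errors of 0.

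Among the light chains, Mylpf, the fast skeletal regulatory chain, had the smallest p in heart. It was at 0.75 ± 0.27 there by the authors' deposited table (p = 0.00487, adjusted p = 0.258) from a mean level of 188. Myl7, the atrial regulatory chain, had -0.58 ± 0.23 in kidney (p = 0.0107, adjusted p = 0.429), -0.14 ± 0.14 in heart and 0.94 ± 0.54 in liver in the authors' deposited tables. The abundant ventricular chains Myl2 and Myl3 were at -0.06 ± 0.18 and 0.19 ± 0.17 in heart, and neither passed. In the other organs Myl1, the fast essential chain, had values between -0.24 ± 0.80 (liver) and 0.79 ± 0.64 (spleen), and 19.5% of its words lie also in the pseudogene Mylf-ps. Mybpc1 and Mybpc2, the slow and fast myosin-binding proteins C, did not pass in any organ, with values of 0.75 ± 1.06 and -0.46 ± 0.26 in heart.

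Lmod2 fell in liver. The wildtype libraries held 68, 101 and 23 reads, or 34.2, 62.6 and 55.5 normalised counts, and the deficient ones 18, 11 and 4 reads, or 12.1, 14.4 and 5.90. All 3 deficient livers were below all 3 wildtype livers. The means were 50.8 ± 14.8 and 10.8 ± 4.4 (SD, n = 3 each), 4.71 times lower in the deficient mice. In the authors' deposited table the log2 fold change was -2.20 ± 0.52, with p = 2.12e-05 and adjusted p = 0.00242. Without any 1 of the libraries the log2 ratio of the recovered means was between -2.50 and -1.94. The exact two-sided permutation p was again 0.1, the smallest possible, for a member picked in the same way, and is no separate support.

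Lmod2 had its highest level in heart among the organs used, and its 0.13 ppm in liver compares with 485 there. The nearest protein-coding genes, Asb15 and Wasl, had values of 1.26 ± 0.98 and 0.11 ± 0.15 in the authors' deposited table for liver, and neither passed the test (they were looked up after the values of Lmod2 were seen). Markers of other cells moved in liver too, where 2.29% of all features passed. Among 7 adipocyte markers, Cidec and Cfd fell by the authors' deposited table (-0.75 ± 0.17 and -2.52 ± 0.53). Of 4 neutrophil markers, S100a8 and S100a9 rose by the same table (0.99 ± 0.24 and 0.88 ± 0.23). The 4 exocrine pancreas markers above 0 in liver had a median of 5.86, and neither of the 2 with an adjusted p passed. The 4 adipocyte markers with recovered reads were Adipoq, Plin1, Lep and Retn, without Cidec and Cfd. Their sum was 183 to 564 normalised counts in wildtype and 38.9 to 254 in deficient livers. The part of the adipocyte, neutrophil and pancreas markers in the Lmod2 difference was not tested.

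The 8 skeletal fibre markers, all with recovered reads in liver, summed to 54.5 to 97.6 normalised counts in wildtype and 84.8 to 100 in deficient libraries. For Nppa, Ryr2, Casq2 and Smpx, 4 of the cardiomyocyte markers, the sums were 65.2 to 82.0 and 43.0 to 66.4. The remaining one above 0, Csrp3, was at 0.26 ± 0.17 in the authors' deposited table. Their part in the Lmod2 difference was not tested.

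Elsewhere Lmod2 did not pass. In the authors' deposited tables it had -0.38 ± 0.15 in heart (p = 0.0100, adjusted p = 0.340), -0.61 ± 0.66 in brain and -0.38 ± 1.17 in kidney, but 0.81 ± 1.97 in spleen, where its mean level was 1.98. Its relative Lmod3, a leiomodin of skeletal muscle that was also highest in heart here, was at -0.19 ± 0.46 in liver and -0.16 ± 0.15 in heart. In liver Lmod3 libraries held 68.4, 36.6 and 38.6 normalised counts in wildtype and 28.2, 32.6 and 69.3 in deficient mice, which overlap.

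The promoter of Lmod2 is shown for the same reason, at chr6:24597521-24597820 on the plus strand of GRCm38.p6 (RefSeq). Capitals mark its 2 E-boxes, and no MEF2 box, CArG box, MCAT element (CATTCC) or GATA motif (AGATAA) was found by letters in these 300 bases.
Lmod2: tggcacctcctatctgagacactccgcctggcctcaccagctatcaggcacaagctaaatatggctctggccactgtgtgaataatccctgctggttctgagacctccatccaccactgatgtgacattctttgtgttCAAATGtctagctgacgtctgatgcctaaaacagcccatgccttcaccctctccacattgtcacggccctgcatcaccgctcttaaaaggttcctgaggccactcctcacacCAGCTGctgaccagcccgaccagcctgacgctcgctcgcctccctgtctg

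The troponins were measured as slow, fast and cardiac genes. Tnni2, the fast troponin I, had 0.96 ± 0.35 in heart (p = 0.0060, adjusted p = 0.279) and 0.69 ± 0.34 in spleen (p = 0.0447, adjusted p = 0.783) by the authors' deposited tables, at mean levels of 136 and 728. Tnni1, the slow troponin I, was at 1.20 ± 0.48 in spleen in the authors' deposited table (p = 0.0121, adjusted p = 0.583). Its spleen libraries held 36.1, 30.3 and 27.5 normalised counts in wildtype and 49.6, 52.1 and 115 in deficient mice. The groups did not overlap, and without the highest library the log2 ratio of the recovered means went from 1.21 to 0.70.

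The cardiac forms Tnnt2 and Tnni3, at 4676 and 2498 ppm in heart, stood at 0.14 ± 0.16 and 0.04 ± 0.18 there by the authors' deposited table. Tnnt1 and Tnnt3 gave 0.29 ± 0.18 and 0.41 ± 0.47 in heart. Tnnc2, the fast troponin C, did not reach a mean level of 10 anywhere: in kidney it had 2, 4 and 3 reads in wildtype and 0 in all deficient libraries, and in liver it was at 0. Cardiac troponin C, Tnnc1, is no member and was listed at 0 in every organ, heart included.

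Acta1, the skeletal alpha-actin that heart also expresses, had the largest spread among abundant heart members, with -1.13 ± 0.87 in the authors' deposited table. In liver it had 25.7, 19.8 and 24.1 normalised counts in wildtype and 14.1, 13.1 and 19.2 in deficient libraries, without overlap, at -0.60 ± 0.54. Tpm1 was measured more precisely than any other member in brain, at -0.03 ± 0.07, and had 0.27 ± 0.17 in heart and 0.28 ± 0.19 in spleen. Neb, highest in liver, was at -0.12 ± 0.18 there and did not pass. Its values in heart and spleen were -0.32 ± 0.21 and -0.30 ± 0.22 in the authors' deposited tables.

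None of the 9 genes of titin, the Z-disc, the M-band and desmin passed. Ttn was at -0.58 ± 0.18 in spleen (p = 0.00130, adjusted p = 0.262) and 0.31 ± 0.19 in kidney by the authors' deposited tables, and at 0.01 ± 0.12 in heart, where it is the spring of every sarcomere. Desmin was the other member of this group with an unadjusted p under 0.05. Des had 0.45 ± 0.17 in spleen (p = 0.00862, adjusted p = 0.520) and 0.06 ± 0.18 in heart in the authors' deposited tables. The smooth muscle genes Tagln and Acta2, which are abundant in smooth muscle cells, had 0.71 ± 0.18 and 0.40 ± 0.15 in spleen in the authors' deposited table. Of the 9 smooth muscle genes none passed there, and their median was 0.39.

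The Z-disc and M-band genes had small values in heart. Actn2, Ldb3, Myoz2, Tcap, Myom1 and Myom2 had values from -0.32 ± 0.25 (Tcap, the titin cap) to just under 0 with a standard error of 0.17 (Actn2, the muscle alpha-actinin) in the authors' deposited table. Actn3, the fast fibre alpha-actinin, was at -0.34 ± 0.46 from a mean level of 91.2. In kidney Myom2 and Myom1, at 18.7 and 4.83 ppm, had 0.12 ± 0.10 and 0.08 ± 0.12. Tcap in liver came from 1 library alone, with 20 reads in wildtype library 1 and 0 in the other 5.

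**Figure D3:**
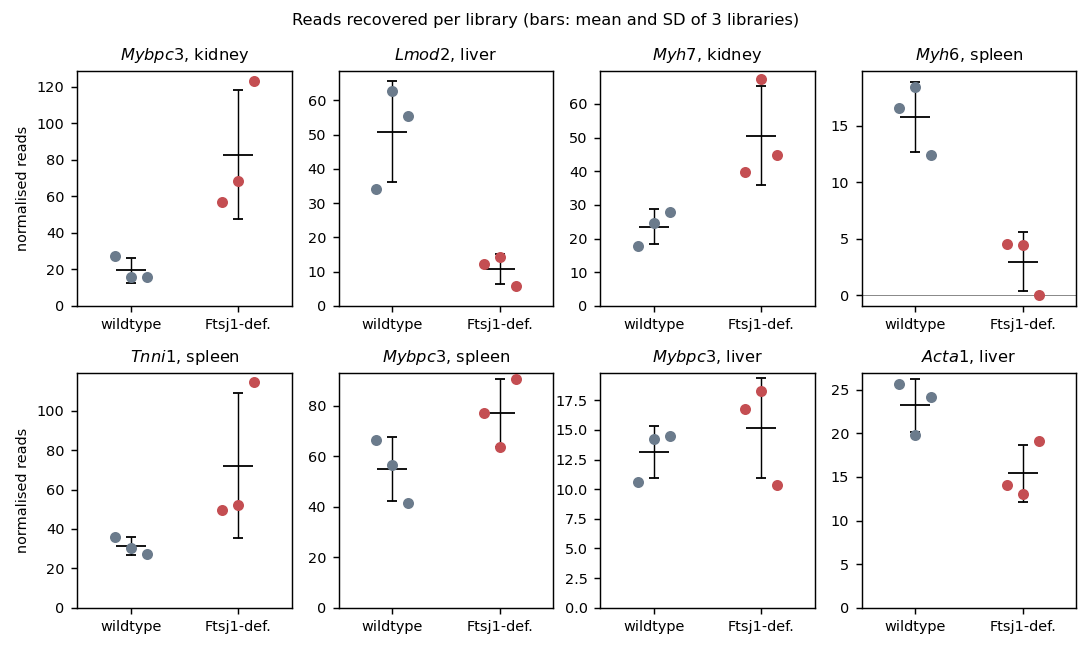
Normalised counts in single libraries for 8 pairs of a member and an organ, from left to right within a genotype by falling size factor, wildtype in grey and Ftsj1-deficient in red, with the mean and SD of 3 libraries; each panel has its own linear axis. The genotypes do not overlap for Mybpc3 in kidney (15.6 to 27.4 against 56.9 to 123), Lmod2 in liver, Myh7 in kidney, Myh6 and Tnni1 in spleen and Acta1 in liver, and they overlap for Mybpc3 in spleen and liver.

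In brain the only unadjusted p-values under 0.05 rested on 1 wildtype library. Myl3 had 20.6, 21.6 and 167 normalised counts in wildtype brains and 21.6, 12.4 and 18.0 in deficient ones. Myl7 had 3.97, 5.60 and 47.8 against 2.57, 1.77 and 5.13. Both are high in wildtype library 3 and alike in the other 5. In the authors' deposited table Myl3 was at -1.98 ± 0.85 (p = 0.0203, adjusted p = 0.999938) and Myl7 at -2.64 ± 1.32 (p = 0.0455, with no adjusted p). Without that library the log2 ratios of the recovered means went from -2.01 to -0.29 and from -2.60 to -0.60.

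That library was the highest of the 6 for 5 of the 12 brain members with recovered reads. Besides Myl3 and Myl7 these were Myoz2, a Z-disc calcineurin regulator of heart and slow muscle, with 69.1 normalised counts against 3.54 to 32.4 in the others, Lmod2 with 70.4 against 15.4 to 51.3, and Myh4 with 148 against 57.0 to 108. It was the lowest library for 4 members, Mybpc2, Tnnt3, Tnnc2 and Myom2, of which Mybpc2 and Myom2 have their highest level in heart. For Lmod3, also highest in heart, it was at 0, as were some deficient libraries. Csrp3, the one cardiomyocyte marker with recovered reads in brain, was at 4.76, 7.21 and 7.97 in wildtype and 2.57, 1.77 and 0 in deficient libraries. Tnni2 gave 26.2, 37.6 and 30.6 against 20.5, 0 and 10.3 and was the one brain member whose genotypes did not overlap (-1.53 ± 0.97 in the authors' deposited table).

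**Figure D4:**
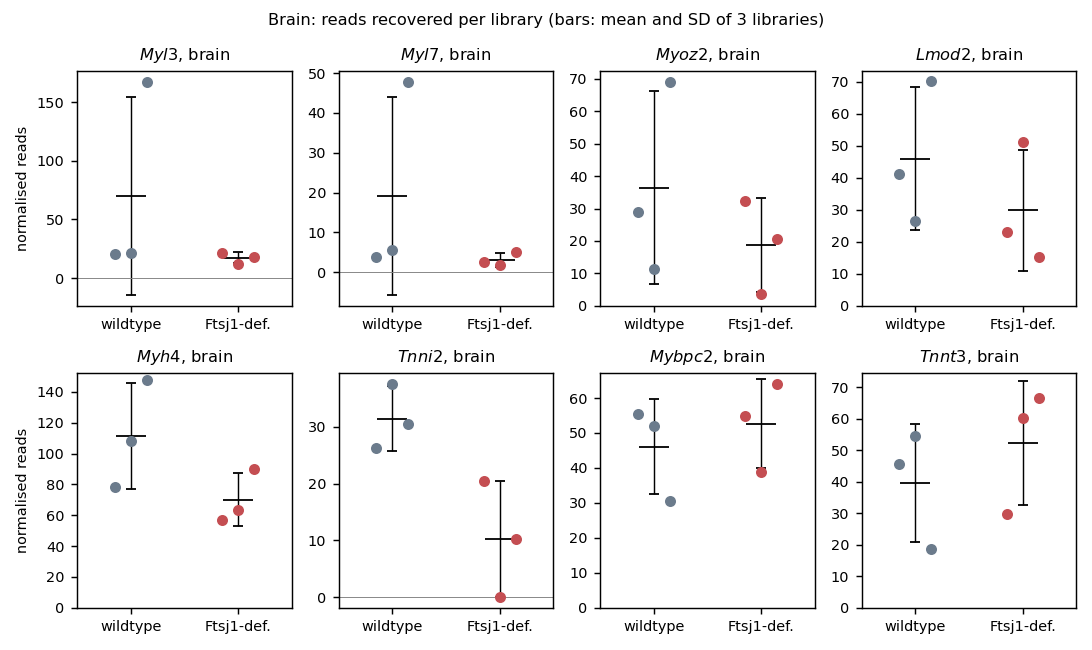
Normalised counts of 8 members in the 6 brain libraries, wildtype in grey and Ftsj1-deficient in red, by falling size factor within a genotype, with the mean and SD of 3 libraries. Wildtype library 3, the rightmost grey point, lies far above the other 5 for Myl3 (167) and Myl7 (47.8).

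Single libraries also carried members elsewhere. Mybpc1 in heart had 49.2% of its normalised counts in deficient library 3, and the log2 ratio of the recovered means turned from 0.80 to -0.77 without it. Myh1 in spleen had 45.3% in wildtype library 2, and its ratio turned from -0.56 to 0.92. In all, 81 pairs of a member and an organ had a mean level under 100, and reads were recovered for 78. The genotypes did not overlap in 10 of these 78, against 9.88% of 1478 sampled features with a mean level of 1 to 100. Kidney had 4 of 15 (8.5% of the sampled features), liver 2 of 26 (8.33%), spleen 2 of 18 (12.5%), brain 1 of 12 (7.38%) and heart 1 of 7 (12.7%).

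The genotype difference of Mybpc3 was not the same in all organs. Cochran's Q over its 5 deposited log2 fold changes was 26.2 (adjusted p = 0.00669 by the Benjamini-Hochberg method over 22997 features). Mybpc3 was 1 of 30 members tested that passed, where 1.03% of all features did. Without heart its adjusted p was 0.0651 and the call ended. Ttn (adjusted p = 0.357), Lmod2 (adjusted p = 0.434) and Myl7 (adjusted p = 0.482) were the other members with an unadjusted p under 0.05, and 7.47% of all features had one. The organs come from the same 6 mice, which the test ignores.

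**Figure D5:**
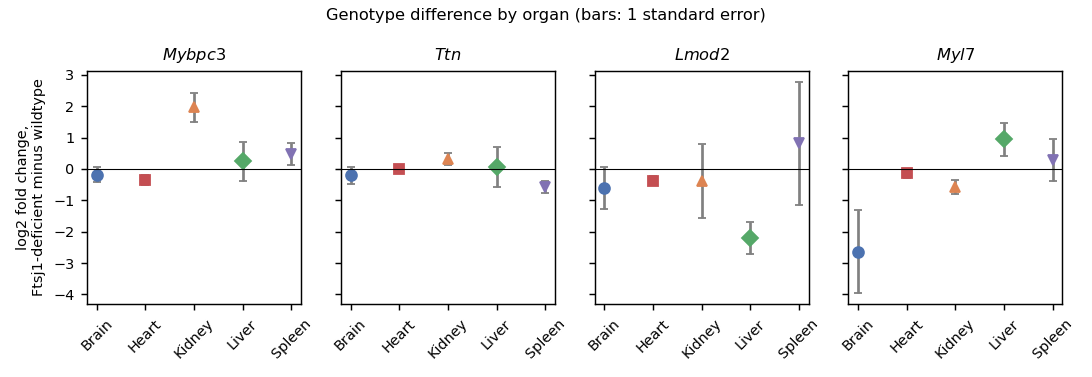
Deposited log2 fold change, Ftsj1-deficient minus wildtype, of 4 members in the 5 organs, with bars of 1 standard error and 1 symbol per organ. Mybpc3 is at 1.96 in kidney and between -0.35 and 0.48 elsewhere, Lmod2 is lowest in liver at -2.20, and the brain value of Myl7 rests on 1 wildtype library.

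Other muscle genes were read beside the members. Among 27 genes of the Z-disc, the costamere and sarcomere assembly, Ankrd1, a stress-responsive titin-binding gene, and Myot, which encodes the Z-disc protein myotilin, fell in heart, 2 of 25 genes with an adjusted p, where 0.541% of all features passed. The authors' deposited table gives -0.78 ± 0.18 for Ankrd1 (adjusted p = 0.00924) and -0.65 ± 0.16 for Myot (adjusted p = 0.0214). Cryab, a small heat shock protein gene of the Z-disc and of kidney cells, rose in the authors' deposited table for kidney (0.36 ± 0.09, adjusted p = 0.00857), 1 of 22 there against 0.987% of all features. In brain, liver and spleen 0 of 21, 0 of 17 and 0 of 21 passed, against 0.0607%, 2.29% and 0.0741%; the smallest p were those of Synpo2l (brain) and Ankrd2 (liver and spleen).

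Of 22 excitation and calcium handling genes, Ryr2 alone passed, in kidney (-0.82 ± 0.14, adjusted p = 2.30e-06 in the authors' deposited table). It was 1 of 20 genes of this list with an adjusted p there, against 0.987% of all features. Of 13 natriuretic peptide and cardiac transcription factor genes, Mef2c alone passed, lower in spleen at -0.59 ± 0.14 (adjusted p = 0.0407 in the authors' deposited table), an organ in which B cells express it. Mef2c was 1 of 8 genes of this list with an adjusted p in spleen, against 0.0741% of all features. None of the 17 other thick and thin filament genes, the 11 muscle energy genes and the 9 smooth muscle genes passed in any organ. Between 0.0607% (brain) and 2.29% (liver) of all features passed. Actc1, Tnnc1, Xirp1, Pln and Cox6a2 were listed at 0 everywhere and could not be read. The smallest p of these lists in heart belonged to Mybphl, Pygm and Actg2, with a value of -1.23 ± 0.36 for Actg2 in the authors' deposited table.

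In heart the markers of other tissues were not even between libraries. The sum of 4 lung epithelium markers was 568 normalised counts in wildtype library 1, the deepest, 42.8 and 46.1 in the other wildtype libraries and 34.7 to 62.5 in deficient ones. Sftpc and Scgb1a1, the rest of these 6 markers, had no recovered reads. The median log2 fold change of the lung list was -7.98, and 1 of the 6 had an adjusted p. Of the neutrophil markers 4 of 4 rose, against 0.541% of all features called. Of 7 adipocyte markers only Lep passed the test, lower, while 4 had an unadjusted p under 0.05 and the list's median log2 fold change was -1.98. Of 6 hepatocyte markers 0 passed by the authors' DESeq2 test, 3 had an unadjusted p under 0.05, and the median was -3.43. Of the skeletal fibre markers Myot was 1 of 8 that fell. The sum of Pvalb, Atp2a1 and Myoz1, the 3 fibre markers with recovered reads, was 127 to 192 in wildtype and 89.0 to 187 in deficient hearts, beside the values above 0 of the fast skeletal members Mylpf and Tnni2. The part of these tissues in the heart values was not tested.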

How the data were processed

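Poly-A libraries of brain, heart, kidney, liver and spleen from 3 Ftsj1-deficient and 3 wildtype mice (30 libraries) were compared organ by organ. Tissue was frozen, pulverised and extracted with phenol, and stranded mRNA libraries were prepared, per the labels' protocols. The submitters' processing notes name GRCm39, featureCounts, Subread 2.0.3 and DESeq2; the aligner, annotation, strand setting and treatment of shared reads are not given here by any source used, so reads of near-identical or overlapping genes are uncertain. The mean signal over 6 libraries was deposited by the authors in normalised counts, per the file headers. The log2 fold change and its standard error in log2 units, the Wald score, the p-value and the adjusted p-value were likewise deposited by the authors, per the file headers. The sign, Ftsj1-deficient minus wildtype, was read from Ftsj1. The 30 total RNA libraries and their tables were not used.

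The authors' test was taken as deposited, with 1 unnamed row left out of each table, since no column holds counts. Whole reads per library were computed from the 15 digits of a mean level, with size factors from features that have 1 read in 1 library; 300 of 300 test features per organ with a mean level of 20 to 50 had 1 solution. The 3 libraries of each genotype are the split that best matched the deposited fold changes, so their agreement (correlation 0.994 to 0.9998) is by construction. The method was tested on simulated data. Members with a mean level under 100 were treated this way. Differences between organs were tested with Cochran's Q on log2 fold changes of features with a mean level of at least 1 in each organ, with Benjamini-Hochberg adjustment. Levels across organs are in ppm, parts in 1000000 of the organ's summed mean level. Coding lengths and 31-base words come from GENCODE M21, and promoters from RefSeq, both on GRCm38. Python 3.11.15, numpy 2.4.6, pandas 2.3.3 and scipy 1.17.1 were used.

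The members and gene lists were chosen with earlier results of these data known. Full statistics are given for members with an adjusted p under 0.05, for members with a mean level of 10 or more and an unadjusted p under 0.05, for the 5 highest heart members per coding kilobase and for the highest member of each other organ; from each other list, genes with an adjusted p under 0.05 or else the smallest p. One further gene list is not reported here. Alternatives were other sets of features for the adjustment, a threshold of 0.1, other scalings, other filters and libraries left out.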

Additional observations from a re-analysis of the deposited data

Results flagged for a closer look

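The genotype difference of Mybpc3 differed between the 5 organs by Cochran's Q (adjusted p = 0.00669 over 22997 features). By the authors' deposited tables it was 1.96 ± 0.45 in kidney, -0.35 ± 0.16 in heart, -0.18 ± 0.25 in brain, 0.25 ± 0.62 in liver and 0.48 ± 0.35 in spleen (log2 scale, SE, 3 against 3 libraries), and without heart the adjusted p was 0.0651.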

How the results depend on the processing

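The calls of Mybpc3 in kidney and Lmod2 in liver held under 3 other sets of features for the adjustment and 2 other scalings. Their adjusted p-values stayed between 0.00236 and 0.00479 and between 0.00233 and 0.00681. The counts of members called were the same in all 5 organs under these alternatives and at a threshold of 0.1. That threshold is looser than the authors' own, so it could add members but could not end either call. Leaving out heart brought the members that differ between organs from 1 to 0. The summed member level of heart over brain went from 155 to 273 without the 100 highest features, and heart over spleen from 156 to 256 in that way and to 278 relative to features common to all organs. Without their highest library, 9 of 45 pairs of a member and an organ moved by more than their standard error and 36 did not. These were pairs with recovered reads and a mean level of 10 or more. Pairs below that level were not counted here, although some of them rest mostly on 1 library. For Mybpc3 in kidney and Lmod2 in liver, each of the 6 libraries was also left out in turn, an alternative chosen after seeing the data; the log2 ratios were 1.68 to 2.40 and -2.50 to -1.94. No paired analysis was possible because the labels give the genotypes no shared replicate numbers and the tables hold no column per library. edgeR, another normalisation, single libraries left out of the authors' test and a litter term were not run, since reads could be recovered for features with a mean level under 100 only. Depth limits the low members: 1 read is worth 0.19 to 3.73 normalised counts, depending on the library.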
